A study of Homo sapiens with 5 samples.

Results

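The genes described here are 10 interferon-stimulated genes with basal reads in A549, a line of human lung carcinoma epithelium: IRF1, USP18, ISG15, HERC5, IFIT1, IFIT5, DDX60, ISG20, IFI35 and IFI44L. They were found by their symbols among 23340 genes of an exon count table and 22009 genes of an intron count table, and all 10 were in both. They were chosen by their exon counts, as interferon-stimulated genes read in these libraries, so their levels are given as a description. In the mock library they had 1 to 208 exon counts, and for DDX60 (1 count) and ISG20 (4 counts) that level is close to none. The 5 libraries, 1 per group, were made from total RNA depleted of ribosomal RNA. Cells received the oligo 23N Randomer at 50 nM for 9 h, 50 nM of a control oligo for 9 h, the randomer for 16 h, the control oligo for 16 h, or Lipofectamine alone for 16 h (mock). All 5 groups thus share the transfection reagent, and no untransfected cells were analysed here. The labels name neither the sequence nor the chemistry of the oligos. By its title, the study asked whether RNA duplexes of intronic and intergenic inverted repeats, which activate RNase L, are seen by the interferon system.

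Interferons bind receptors whose JAK kinases activate transcription factors of the STAT family. A complex of these with IRF9 binds the interferon-stimulated response element (ISRE) in the promoters of interferon-stimulated genes. Interferon gamma acts mainly through another element, the gamma-activated site (GAS). In airway epithelial cells these genes are known for limiting virus replication. IRF1 is a transcription factor that activates many of the other genes, USP18 removes ISG15 from proteins and damps receptor signalling, and ISG15 is the ubiquitin-like modifier itself. HERC5 is the main ligase that attaches ISG15 to proteins. IFIT1 and IFIT5 bind viral RNA ends, DDX60 is a putative RNA helicase, and ISG20 is an exonuclease. IFI35 and IFI44L are interferon-induced proteins of less defined function.

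The promoters of 9 of the 10 genes were matched in RefSeq (GRCh38.p14, from 250 bases before to 50 bases after the start). Of these, 4 are shown, picked by their exon counts in these libraries. The build differs from hg19, which the submitters' processing notes name for the counts. Capitals mark matches to the ISRE core (GAAA, any 2 bases, then GAAA), to the GAS motif TTCNNNGAA or to the kB motif of NF-kB, each searched on both strands. IRF1, shown for its rise under randomer, has 1 GAS match and 1 kB match and no ISRE core match. ISG15, HERC5 and IFIT5, shown because their exon counts were level or lower under randomer, have 2, 3 and 3 ISRE core matches, of which the pair in ISG15 and the first pair in HERC5 overlap.
IRF1 (chr5:132490724-132491023, - strand): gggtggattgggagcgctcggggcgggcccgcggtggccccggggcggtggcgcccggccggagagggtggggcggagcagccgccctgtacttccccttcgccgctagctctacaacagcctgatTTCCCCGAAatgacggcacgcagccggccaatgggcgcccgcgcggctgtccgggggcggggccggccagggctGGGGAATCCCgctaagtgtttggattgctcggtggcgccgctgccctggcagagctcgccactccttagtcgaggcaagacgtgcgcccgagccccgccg
ISG15 (chr1:1013247-1013546, + strand): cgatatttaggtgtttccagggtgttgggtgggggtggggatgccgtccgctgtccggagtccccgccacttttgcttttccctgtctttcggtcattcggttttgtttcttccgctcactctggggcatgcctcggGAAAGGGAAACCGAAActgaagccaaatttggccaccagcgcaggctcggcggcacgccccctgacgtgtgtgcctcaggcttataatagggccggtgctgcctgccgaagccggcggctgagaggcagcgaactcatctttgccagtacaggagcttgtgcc
HERC5 (chr4:88456869-88457168, + strand): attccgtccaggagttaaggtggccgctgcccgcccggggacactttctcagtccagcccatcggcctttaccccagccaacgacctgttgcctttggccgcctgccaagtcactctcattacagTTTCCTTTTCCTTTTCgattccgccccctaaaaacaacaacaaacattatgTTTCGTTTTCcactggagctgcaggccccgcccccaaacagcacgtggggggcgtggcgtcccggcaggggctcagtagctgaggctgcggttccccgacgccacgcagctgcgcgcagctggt
IFIT5 (chr10:89414318-89414617, + strand): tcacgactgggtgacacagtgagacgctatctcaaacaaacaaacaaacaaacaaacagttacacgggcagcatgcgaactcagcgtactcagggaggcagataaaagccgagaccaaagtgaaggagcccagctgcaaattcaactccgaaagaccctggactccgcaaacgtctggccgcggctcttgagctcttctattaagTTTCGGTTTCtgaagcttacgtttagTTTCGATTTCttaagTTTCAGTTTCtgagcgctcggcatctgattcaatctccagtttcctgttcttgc

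An ISRE core match was present in 7 of the 9 promoters and in 3.57% of all 35116 promoters of that length. Only IRF1 and IFI35 of the 9 had none, and each of them had a GAS match. A GAS match was present in 3 of the 9, which also include DDX60, and in 7.66% of all promoters. A kB match was present in IRF1 alone among the 9 and in 5.91% of all promoters. IFI35, with a GAS match and no ISRE core match, had no exon call. DDX60 and ISG20, both with an ISRE core match, rose by introns and had no exon call. Whether motifs go with response was not tested. These matches are descriptions of letters in a window and not measurements of binding. USP18 had no promoter entry.

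Exon counts summed to between 1476223 and 2629053 per library and intron counts to between 603142 and 1947593. Introns held 49.7% and 56.9% of the counts under randomer at 9 h and 16 h, against 22.0% and 22.9% under control oligo and 23.6% in the mock library. The ribosomal precursor RN45S took 6.78% to 16.4% of exon counts, most under randomer at 16 h. Low counts were clumped: in the mock library 136 genes had 1 exon count and 184 had 8. Intervals below treat each count as an independent molecule, cover counting error only and may be too narrow. Differences at a single time compare 2 libraries and have no replicate check. The tests used edgeR's quasi-likelihood fit of the 4 oligo libraries with time as a term, with Benjamini-Hochberg adjustment over all genes. Levels are in CPM, exon or intron counts scaled by the effective exon library size. The words rose and fell are kept for an adjusted p under 0.05. The labels do not say that the times came from separate cultures, so p-values measure only the spread between these libraries, which may be technical. In bulk libraries, fewer cells expressing a gene and less RNA per cell cannot be told apart.

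Of the 10 genes, IRF1 alone rose by exon counts and none fell. All 10 passed the filter of 10 counts in 2 libraries by exons. Among all 11407 genes tested 6.90% were called higher and 3.16% lower. At an unadjusted edgeR p under 0.05 there was 1 higher and 1 lower gene, IRF1 and HERC5, and DESeq2 also called 1 higher and 1 lower. By introns, 6 of the 10 had enough counts to be tested, and IRF1, DDX60, ISG20 and IFI35 rose, against 47.6% called higher of all 11983 genes tested. None of the 6 fell by edgeR, by DESeq2 or at an unadjusted p under 0.05 (0 in each), with 0.0501% called lower among all genes. DDX60 and IFI35 each passed the filter on low counts through both randomer libraries and 1 control oligo library. Neither would have passed without the randomer libraries. The median exon log2 change of the 10 was 0.22, and that of all genes was 0.04.

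**Figure D1:**
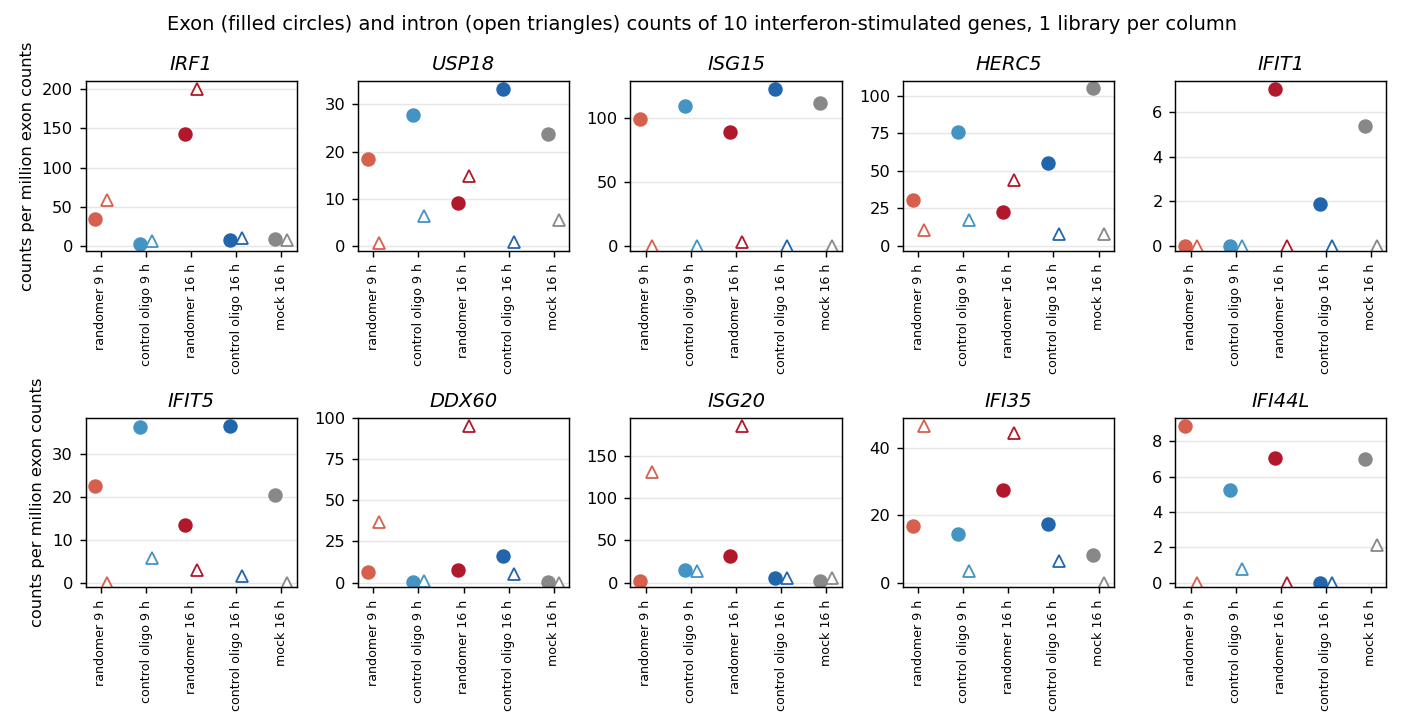
Exon counts (filled circles) and intron counts (open triangles) as CPM for each of the 10 genes, 1 library per column. IRF1 is high in both randomer libraries by both measures, DDX60 and ISG20 are high there by introns, and HERC5, USP18 and IFIT5 have their lowest exon values under randomer at 16 h.

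Per kilobase of transcript, the exon level separated the genes widely in the mock library. ISG15 stood highest at 176 CPM per kilobase, followed by HERC5 at 29.8, USP18 at 11.1, IFI35 at 6.50, IFIT5 at 5.09 and IRF1 at 2.55. IFI44L, IFIT1 and ISG20 were at 1.19, 1.17 and 1.16, on 13, 10 and 4 counts, and their order cannot be read from so few. DDX60 was lowest at 0.0886, on 1 count. With randomer at 16 h ISG15 still stood highest at 140, and the next places were taken by IRF1 at 40.0, IFI35 at 22.2 and ISG20 at 17.1. HERC5, USP18 and IFIT5 followed at 6.43, 4.31 and 3.34, and IFIT1, DDX60 and IFI44L at 1.53, 1.28 and 1.20. With control oligo at 16 h, ISG15 stood at 193 and IRF1 at 2.01. Transcript lengths came from the RefSeq-matched GENCODE model of each gene, ranging from 637 bases for ISG15 to 6071 for DDX60.

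IRF1, the regulator, was the member with the clearest rise. Under randomer it had 65 exon counts at 9 h and 203 at 16 h, against 6 and 19 under control oligo at these times and 17 in the mock library. Both randomer libraries lay above all 3 others. The exon log2 change was 4.14 (SE 0.54, edgeR adjusted p = 1.42e-09), a 17.6-fold rise, and 552 of the 11407 genes tested had a higher fitted value. The log2 ratio was 3.92 at 9 h (95% counting interval 2.72 to 5.41) and 4.32 at 16 h (3.64 to 5.08), and 3.97 against mock at 16 h. Exon counts of IRF1 were also higher at 16 h than at 9 h, 4.21-fold under randomer (log2 ratio 2.07, interval 1.66 to 2.50) and 3.19-fold under control oligo (1.67, interval 0.29 to 3.29). IRF1 introns had 112 and 284 counts under randomer against 15 and 26 under control oligo and 14 in the mock library, again without overlap between randomer and the rest. By introns 67.3% and 75.1% of all genes tested were at least 2-fold higher over control oligo at 9 h and 16 h. The share of all genes without such overlap was not computed, here or for the genes below. The intron log2 change was 3.88 (SE 0.57, edgeR adjusted p = 3.72e-05), 1.92 above the median of all genes. Control oligo and mock were close at 16 h, the log2 ratio of control oligo to mock being -0.35 by exons (-1.37 to 0.69) and 0.39 by introns (-0.60 to 1.44).

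Exons and introns of IRF1 both rose, and its intron share stayed in one range. Under randomer introns held 63.3% of IRF1 counts at 9 h and 58.3% at 16 h, against 71.4% and 57.8% under control oligo and 45.2% in the mock library, and the exact Clopper-Pearson intervals overlapped throughout (47.8% to 88.7% under control oligo at 9 h). Of the 9295 genes tested in both tables, 4325 were called higher by introns. Of these 4325, 12.6% were also called higher by exons, 1.90% were called lower and 85.5% were not called. IRF1 belonged to the first of these classes and DDX60, ISG20 and IFI35 to the last. The IRF1 transcript overlaps C5orf56 and AC116366.3 on the opposite strand in GENCODE. The counting of strands is not stated in the labels, so reads of these genes cannot be told apart from those of IRF1.

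**Figure D2:**
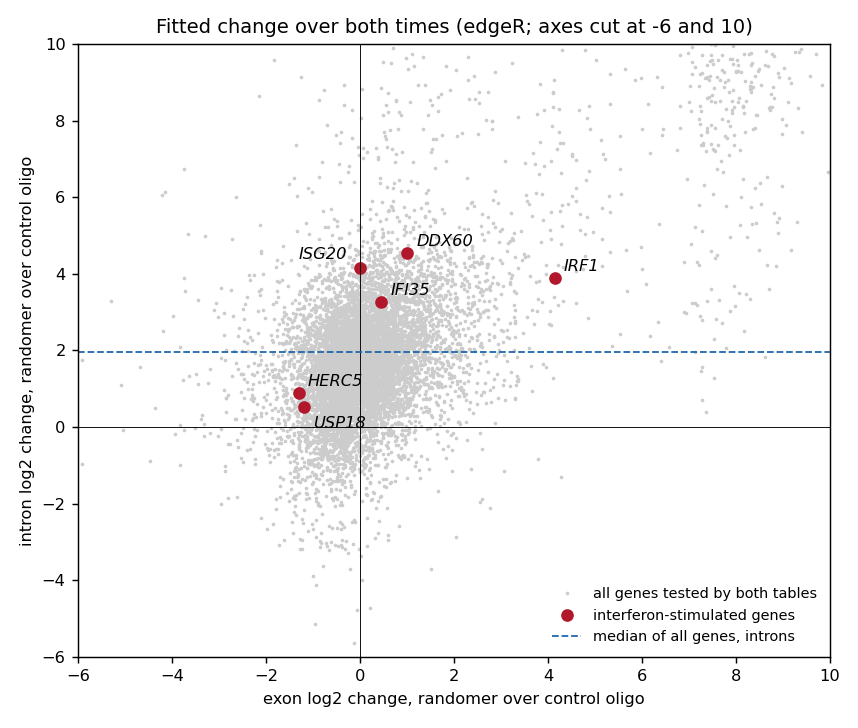
Fitted log2 change of randomer over control oligo by exon counts (horizontal) and intron counts (vertical) for genes tested in both tables (grey, axes cut at -6 and 10) and the 6 interferon-stimulated genes among them (red). IRF1 lies far to the right at 4.14 and 3.88, ISG20, DDX60 and IFI35 lie above the dashed intron median of 1.96 with exon values near 0 to 1, and HERC5 and USP18 lie below it.

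The ISG15 conjugation genes gave no call by exons. ISG15 had 190 and 126 exon counts under randomer at 9 h and 16 h, against 291 and 325 under control oligo and 208 in the mock library. Scaled to library size these values were 99.5 and 89.0 CPM under randomer, 109 and 123 under control oligo and 112 in the mock library, so both randomer libraries were the lowest by a narrow margin. The log2 change was -0.30 (SE 0.32, edgeR adjusted p = 0.677). The log2 ratio at 9 h was -0.14 (-0.41 to 0.13) and at 16 h it was -0.47 (-0.78 to -0.17). The single ISG15 intron, 407 bases long in the annotation, had 4 counts under randomer at 16 h and 0 in the other 4 libraries.

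HERC5, the ISG15 ligase, had the lowest exon log2 change of the 10 and came closest to a fall. It had 58 and 32 exon counts under randomer, against 202 and 146 under control oligo at 9 h and 16 h and 195 in the mock library. No control oligo or mock value reached down to the randomer values, also after scaling to library size. The log2 change was -1.30 (SE 0.46), and it missed the threshold at an edgeR adjusted p of 0.0537. DESeq2 gave an adjusted p of 0.0449, and with the mock library added edgeR gave 0.0271. The log2 ratio was -1.32 at 9 h (-1.77 to -0.89), -1.29 at 16 h (-1.89 to -0.73), and -2.21 against mock at 16 h (-2.80 to -1.67). Control oligo itself was below mock (-0.92, interval -1.24 to -0.61). HERC5 introns had 20 and 62 counts under randomer, against 46 and 21 under control oligo and 15 in the mock library, and the intron fit did not pass (log2 change 0.87, SE 0.95, edgeR adjusted p = 0.529). At 16 h introns held 66.0% of HERC5 counts under randomer (55.5% to 75.4%), against 12.6% under control oligo (7.96% to 18.6%) and 7.14% in the mock library. At 9 h the shares were 25.6% under randomer (16.4% to 36.8%) and 18.5% under control oligo (13.9% to 24.0%).

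USP18, the ISG15 protease, had 35 and 13 exon counts under randomer, against 74 and 88 under control oligo and 44 in the mock library. The randomer libraries were the lowest of the 5, with 18.3 and 9.18 CPM, and the mock library stood next at 23.7 CPM. The log2 change of -1.20 did not pass (SE 0.67, edgeR adjusted p = 0.310). The log2 ratio at 16 h was -1.86 over control oligo (-2.82 to -1.01) and -1.37 over mock (-2.38 to -0.45). USP18 introns had 1 and 21 counts under randomer, against 17 and 2 under control oligo and 10 in the mock library. The randomer libraries were thus the lowest and the highest of the 5, and the intron fit did not pass (log2 change 0.53, SE 2.31, edgeR adjusted p = 0.925). At 16 h introns held 61.8% of USP18 counts under randomer (43.6% to 77.8%), against 2.22% under control oligo (0.27% to 7.80%) and 18.5% in the mock library. At 9 h the order was reversed, with 2.78% under randomer (0.07% to 14.5%) and 18.7% under control oligo (11.3% to 28.2%). USP18 has a near-identical copy, USP41, so its counts are uncertain where reads could fit both. Of the 7 tested genes of an 8-gene conjugation list, none was called in either direction by exons, with a median log2 change of -0.30. Of all genes 6.90% were called higher and 3.16% lower. TRIM25 and ARIH1, ligases that can attach ISG15, had log2 changes of -0.10 and 0.32 (edgeR adjusted p = 0.887 and 0.695). By introns ARIH1 alone of 6 tested genes of that list rose, 9.91-fold (edgeR adjusted p = 5.16e-06), against 47.6% of all genes called higher.

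The RNA-binding IFIT genes split by level. IFIT5 had 43 and 19 exon counts under randomer, against 97 and 97 under control oligo and 38 in the mock library. Scaled to library size this was 22.5 and 13.4 CPM under randomer, 36.5 and 36.7 under control oligo and 20.4 in the mock library, so the randomer libraries lay on both sides of mock. The log2 change of -1.06 did not pass (SE 0.58, edgeR adjusted p = 0.295). Against mock at 16 h the log2 ratio was -0.61 (-1.48 to 0.22), and control oligo was above mock by 0.85 (0.29 to 1.43). IFIT1, whose product binds the caps of viral RNA, had 0 and 10 exon counts under randomer, 0 and 5 under control oligo and 10 in the mock library. A count of 0 allows up to 3 counts in a library. No intron count of IFIT1 was listed in any library, and IFIT5 introns had 0 and 4 under randomer, 15 and 4 under control oligo and 0 in the mock library. IFIT1 overlaps LIPA on the opposite strand.

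**Figure D3:**
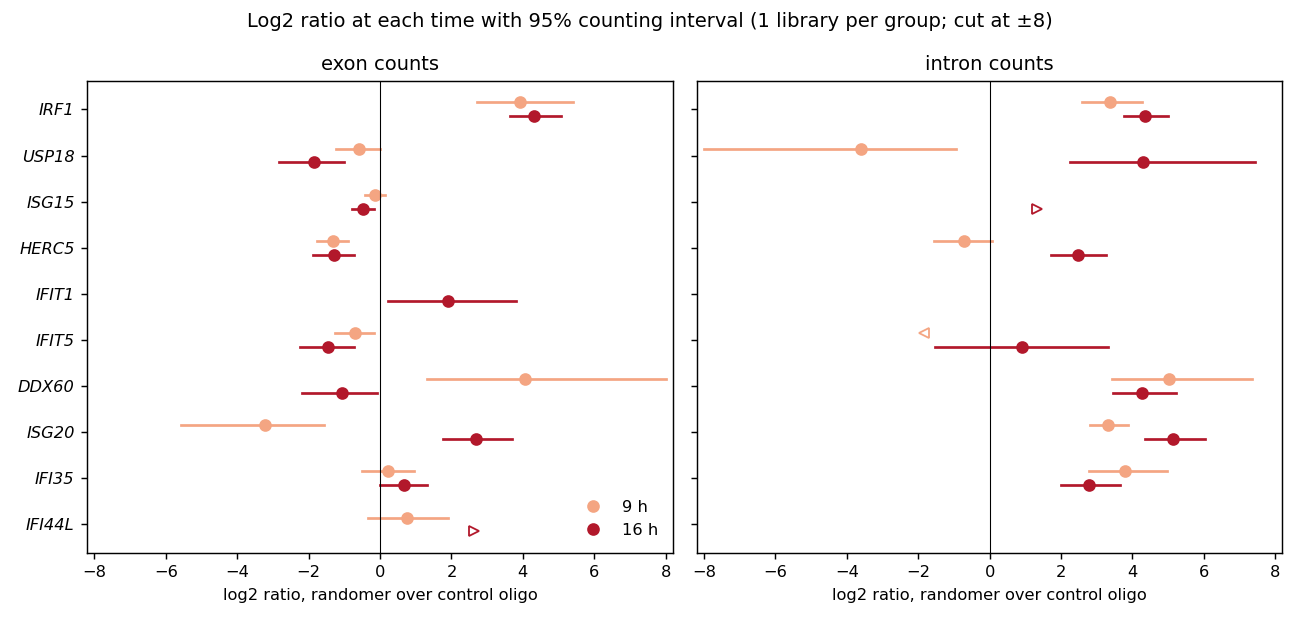
Log2 ratio of randomer over control oligo at 9 h (light) and 16 h (dark) for exon counts (left) and intron counts (right), with 95% counting intervals cut at the axis limits. Open triangles are ratios against a library at 0, computed with a floor of 3 counts and without counting error. Genes at or under that floor in both libraries have no symbol. IRF1 is to the right of 0 in all 4 ratios, and DDX60 and ISG20 change side between the times by exons but not by introns.

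DDX60, ISG20 and IFI35 gained intron reads while their exon counts gave no call. DDX60 introns had 70 and 135 counts under randomer, against 3 and 13 under control oligo and 0 in the mock library. The log2 change was 4.54 (SE 0.77, edgeR adjusted p = 0.000137). Over mock at 16 h the intron counts were 59.1-fold higher, with 3 counts as the floor in the mock library. With counting error the lower limit of that log2 ratio was 5.57. DDX60 exons had 12 and 11 counts under randomer, against 1 and 43 under control oligo and 1 in the mock library. The control oligo library at 16 h was thus the highest, and it stood apart from the other control oligo and mock libraries. The exon log2 change was 1.0 (SE 1.65, edgeR adjusted p = 0.845). Introns held 85.4% and 92.5% of DDX60 counts under randomer, and 23.2% under control oligo at 16 h. Under control oligo at 9 h they held 75.0% (19.4% to 99.4%), on 3 intron counts and 1 exon count. DDX60 has the longest introns of the 10, 96444 bases in all.

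ISG20, the exonuclease, had 250 and 264 intron counts under randomer, against 35 and 14 under control oligo and 9 in the mock library. The randomer libraries were far above the others at both times (log2 change 4.16, SE 0.56, edgeR adjusted p = 2.02e-05). Its exons had 3 and 45 counts under randomer, against 39 and 13 under control oligo and 4 in the mock library. The lowest and the highest of the 5 exon values were therefore both randomer libraries, and the exon log2 change was 0.00 (SE 1.03, edgeR adjusted p = 0.999). Introns held 98.8% of its counts under randomer at 9 h (96.6% to 99.8%) and 85.4% at 16 h (81.0% to 89.2%), against 47.3% (35.6% to 59.3%) and 51.9% (31.9% to 71.3%) under control oligo. The mock share was 69.2%, and its interval (38.6% to 90.9%) overlapped that of randomer at 16 h.

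IFI35 introns had 89 and 63 counts under randomer, against 9 and 17 under control oligo and 0 in the mock library (log2 change 3.25, SE 0.82, edgeR adjusted p = 0.00432). With scaling factors taken from the intron table itself, the log2 change was 1.61 and the call was lost (edgeR adjusted p = 0.234), whereas IRF1, ISG20 and DDX60 kept theirs. IFI35 exons had 32 and 39 counts under randomer, 38 and 46 under control oligo and 15 in the mock library. After scaling the randomer values of 16.8 and 27.5 CPM were somewhat above the control oligo values of 14.3 and 17.4, without a call (log2 change 0.45, SE 0.74, edgeR adjusted p = 0.810). IFI44L had few reads: 17 and 10 exon counts under randomer, 14 and 0 under control oligo and 13 in the mock library. At 16 h IFI44L was 6.22-fold higher under randomer than under control oligo, with the floor of 3 counts in place of 0. With counting error the lower limit of that log2 ratio was 2.06. Over mock, however, the IFI44L log2 ratio was 0.01 (-1.33 to 1.32). Its introns had 4 counts in the mock library, 2 under control oligo at 9 h and 0 elsewhere.

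**Figure D4:**
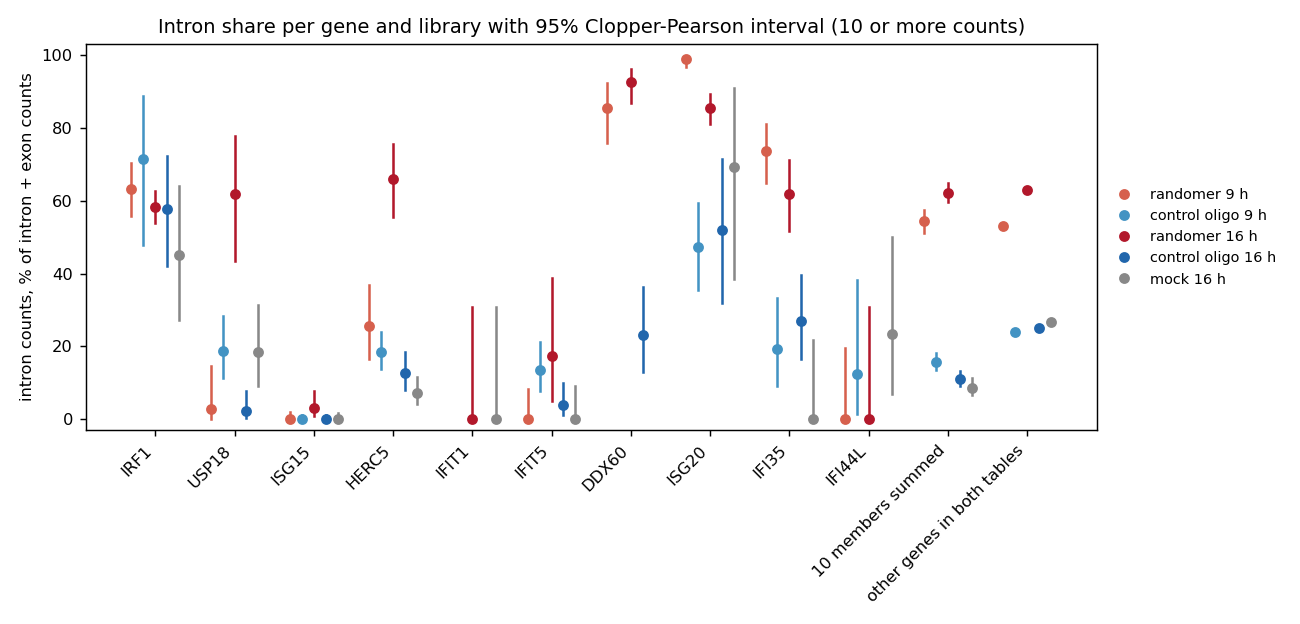
Share of intron counts among intron and exon counts for each gene, for the 10 summed and for all other genes present in both tables, with exact 95% Clopper-Pearson intervals; a point is drawn where a gene had at least 10 counts. The summed share is 54.4% and 62.2% under randomer against 15.7%, 11.0% and 8.71% in the control oligo and mock libraries, while single genes range from ISG15 near 0 to ISG20 above 80% under randomer.

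Summed over the 10 genes, the intron share under randomer was 54.4% at 9 h and 62.2% at 16 h, against 15.7% and 11.0% under control oligo and 8.71% in the mock library. All other genes in both tables stood at 53.1% and 63.1% under randomer, against 24.0% and 25.2% under control oligo and 26.7% in the mock library. Medians over single genes with at least 10 counts differed more under randomer at 9 h, 25.6% for members against 56.6% for all genes. At 16 h under randomer they were 60.0% and 65.7%. Under control oligo the members had 18.6% and 17.9%, against 28.4% and 30.1% for all genes. In the mock library they had 7.14% against 31.8%. Of the 10, ISG15 had the most exon counts in the control oligo and mock libraries and almost no intron counts. Under randomer IRF1 (112 and 284) and ISG20 (250 and 264) had the most intron counts. The sum without ISG15 was not tested. At a fold of at least 2 at 16 h, IRF1, IFIT1, ISG20 and IFI44L were higher by exons, 4 of 10 against 23.3% of all genes tested. USP18, HERC5, IFIT5 and DDX60 were lower, 4 of 10 against 14.5%. At 9 h, IRF1 and DDX60 were higher (2 of 10, against 20.7%) and HERC5 and ISG20 lower (2 of 10, against 11.9%). IRF1 and HERC5 were past 2-fold in one direction at both times, and the share of all genes that were so was not computed. Against mock at 16 h, IRF1, DDX60, ISG20 and IFI35 were at least 2-fold higher (4 of 10, against 25.1%) and USP18 and HERC5 lower (2 of 10, against 14.4%). Control oligo alone was past 2-fold over mock for DDX60, ISG20 and IFI35 (3 of 10, against 13.1%) and under it for IFIT1 and IFI44L (2 of 10, against 10.6%). By introns, IRF1, DDX60, ISG20 and IFI35 were at least 2-fold higher at 9 h (4 of 6, against 67.3%) and USP18 was lower (1 of 6, against 4.88%). At 16 h all 6 tested genes were higher, over control oligo (background 75.1%) and over mock (72.2%), and none was lower (3.27% and 4.05%). For introns of control oligo over mock, DDX60 and IFI35 were higher (2 of 6, against 14.0%) and USP18 lower (1 of 6, against 16.8%).

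The rest of the pathway, taken from gene lists, held few calls by exon counts. SOCS3, a feedback inhibitor of JAK kinases, was the 1 gene of 12 for interferon receptor signalling that rose, against 6.90% of all genes. It had 157 and 128 counts under randomer, against 49 and 43 under control oligo and 19 in the mock library (log2 change 2.31, SE 0.44, edgeR adjusted p = 7.49e-05). JAK1 and IFNGR2 had log2 changes of -0.01 and -0.26 (edgeR adjusted p = 0.989 and 0.786). The introns of JAK1, JAK2, IFNGR2 and TYK2 rose, 4 of 9 tested against 47.6% of all genes, with a median log2 change of 1.99, close to the 1.96 of all genes. Of 6 tested members of the IRF family IRF1 alone was called, against 6.90% of all genes called higher. IRF5 and IRF9 had log2 changes of 2.12 and 3.47 without a call (edgeR adjusted p = 0.106 and 0.137), and IRF3, which is activated by RNA sensing, had 0.19 (edgeR adjusted p = 0.901). By introns IRF1, IRF2 and IRF8 were called higher, 3 of 5 tested, near the 47.6% of all genes. IRF8 had 112 and 198 intron counts under randomer and 0 in the other 3 libraries, so it passed the filter only through randomer.

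Among 52 other interferon-stimulated genes, 22 had no exon count in any library, among them MX1, MX2, RSAD2, IFI27, IFITM1, BST2 and XAF1. Of the 23 tested none was called higher, against 6.90% of all genes. B2M, the light chain of MHC class I, fell 1.76-fold, the 1 of 23 called lower, against 3.16% of all genes. B2M had 340 and 266 counts under randomer, against 837 and 867 under control oligo and 495 in the mock library (log2 change -0.81, SE 0.25, edgeR adjusted p = 0.0202). The median log2 change of the 23 was -0.47, against 0.04 for all genes. DDX60L, the neighbouring paralog of DDX60, had an exon log2 change of 0.49 (edgeR adjusted p = 0.604). Its introns rose, with 289 and 293 counts under randomer against 54 and 25 under control oligo (log2 change 3.64, SE 0.52, edgeR adjusted p = 3.78e-05). By introns 6 of 19 tested genes of this list rose, namely DDX60L, DDX58, SP100, ZC3HAV1, LGALS3BP and B2M, against 47.6% of all genes, and the median log2 change was 1.41 against 1.96 for all genes. LGALS3BP reached 10 intron counts only in the randomer libraries, so it could be tested only as higher. DDX58 encodes the RNA sensor RIG-I, and its introns rose 9.45-fold. Of 8 interferon genes 7 had no exon count in any library, including IFNB1, and IFNE had 41 counts under randomer at 9 h and 10 in the mock library.

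Markers of A549 cells and airway epithelium were read in every library. Of the 10, 6 were tested by exons, KRT18 and ALDH1A1 fell (2 of 6, against 3.16% of all genes), and NKX2-1 and SFTPB were at 0 throughout. By introns KRT8, KRT7 and CDH1 were called higher, 3 of 7 tested against 47.6% of all genes, and KRT7 passed the filter only through randomer. Of the leukocyte markers, CD68 had 58 and 60 exon counts under randomer, against 12 and 16 under control oligo and 12 in the mock library, and ITGAM had 44 and 101, against 0 and 18 under control oligo and 6 in the mock library. Both rose, while PTPRC, the pan-leukocyte marker, CD3E and LYZ were at 0 in every library. These values moved under randomer as IRF1 and the ISG20 introns did, and their part in those results was not tested. Of 5 markers of fibroblasts and endothelium 2 were tested, and VWF was called higher, with 52 and 65 counts under randomer and 0 in the other 3 libraries, while COL1A2 was at 0 throughout. VWF passed the filter on low counts only through the randomer libraries, so it could be tested only as higher.

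For the 5 members averaging 50 or more exon counts, the genes with the most similar profile were found by the root mean square difference of centred log2 values over the 5 libraries. For ISG15 the nearest were ATP6V1C1 (0.0286), NBN (0.0458) and UGGT1 (0.0556), against a median of 0.390 over all genes. For HERC5 they were COL3A1 (0.126), PVRL3 (0.142) and PJA1 (0.169), against a median of 0.838. For USP18 they were MOCOS (0.106), SPATS2L (0.126) and PPIB (0.130), and for IFIT5 NOB1 (0.0841), FECH (0.0926) and PON2 (0.102). IRF1 had no gene as near: RNU12 (0.622), LOC100507412 (0.628) and SRA1 (0.719) were the closest, against a median of 2.10. No member was among the 3 nearest of another. These distances describe 5 libraries that share their depth and scaling.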

How the data were processed

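Exon and intron reads per gene were measured in 5 libraries of A549 cells. The authors deposited raw counts per gene symbol, 1 table for exons and 1 for introns, with no normalization. The submitters' processing notes list TopHat2, HTSeq and hg19 with no version. The annotation, the strand setting and any handling of duplicates were not given in the sources used here. Left out were 28 rows per table whose symbols had turned into dates, 0.153% to 0.289% of a column's counts. Genes reaching 10 counts in 2 or more libraries were tested with edgeR 4.0.16 (R 4.3.3). The fit used TMM factors of the exon table for both tables, so that a general intron gain is kept, and time as a term, with 1 residual degree of freedom. Standard errors came from the fitted weights. The fits were also run on simulated data with 200 changed genes, far fewer than the 5705 called higher by introns. No result given here rests on that run. Single-time log2 ratios have exact conditional binomial intervals at 95%, and shares exact Clopper-Pearson intervals. A fold against 0 counts used a floor of 3 counts in that library. Gene lengths and overlaps came from GENCODE release 29 on GRCh38, and promoter sequences from RefSeq.

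The 10 genes and the lists were chosen with earlier results of these data known. Named genes were all 10 members and, per list and table, the called genes and up to 3 uncalled genes with the highest mean exon count, of which those bearing on the members are given, plus the 3 nearest profiles. The text also names some genes at 0, chosen after their values were seen. Alternatives covered scaling, filters, DESeq2 1.42.0, the time term, the mock library and, added after seeing the data, counts divided by 8. Some genes of the lists are not reported here.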

Additional observations from a re-analysis of the deposited data

Results flagged for a closer look

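The exon counts of DDX60 and ISG20 and the intron counts of USP18 pointed in opposite directions at the 2 times, with both counting intervals away from 0, and each rests on 1 library per group and time, and the difference between times was not tested. DDX60 exon counts had a log2 ratio of randomer over control oligo of 4.06 at 9 h (12 counts against 1, interval 1.31 to 9.48) and -1.07 at 16 h (11 against 43, -2.17 to -0.09). ISG20 exon counts had -3.22 at 9 h (3 against 39, -5.56 to -1.57) and 2.69 at 16 h (45 against 13, 1.78 to 3.71). USP18 intron counts had -3.61 at 9 h (1 against 17, -8.99 to -0.93) and 4.29 at 16 h (21 against 2, 2.26 to 7.43).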

How the results depend on the processing

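IRF1 was called higher by exons under all 8 alternatives (log2 change 4.05 to 4.21, adjusted p 1.23e-11 to 0.00571) and by introns under all 9 (2.23 to 4.06, adjusted p 3e-13 to 0.00392). DDX60 and ISG20 were called by introns under all 9 and IFI35 under 8 of 9, the exception being the intron table's own TMM. HERC5 was called lower by exons, making 1 member, with the DESeq2 test and with mock added (log2 change -1.59), and not in the other 6 (adjusted p 0.0271 to 0.0992 over the 8). Signs turned for genes without a call: DDX60 exons without the time term (-0.25), ISG20 exons with library totals (-0.013) and with the DESeq2 test (-0.10), and introns of USP18 (-1.09) and HERC5 (-0.77) when TMM came from the intron table. Over all genes, exon calls were 400 higher and 124 lower with counts divided by 8 (main 787 and 360), and lower calls were 237 under DESeq2 size factors and 95 when time was left out. Intron calls lower (main 6) were 3 with DESeq2 size factors, 29 with the DESeq2 test, 15 when time was left out, 10 when mock joined the fit and 15 after division by 8. With the intron table's own TMM 1858 genes were higher (main 5705) and 614 lower. The causes were not tested. Without IRF1 and IFIT1, which overlap other genes, the summed intron share was 65.2% with randomer and 8.56% with control oligo at 16 h. No paired analysis was possible because each group is 1 library, beyond the time term of the fit, which compares both oligos within each time. Depth limited genes such as IFIT1 and IFI44L, at 17 exon counts or fewer per library.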
